A study of Arabidopsis thaliana with 74 samples.

Results

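The rosette libraries with the highest and the lowest level of LTI78 (also known as RD29A, AT5G52310) were compared across all genes of Arabidopsis thaliana. LTI78 encodes a hydrophilic protein whose transcript is a standard marker of water deficit, cold and the plant hormone abscisic acid. The 70 libraries of 36 epiRILs and 34 epiHybrids were ranked by the LTI78 count scaled to a common library total (CPM), and the 12 highest were set against the 12 lowest. The 24 libraries were thus 24 of 70 ranked and of 74 in the series. Because a measured value chose them, differences between the 12 high and the 12 low libraries are given as descriptions, with no p-value.

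epiRILs are inbred lines in the Columbia accession whose genomes keep patches of lost DNA methylation that go back to a ddm1-2 mutant parent. epiHybrids are F1 plants from crosses in which an epiRIL was the father and the mother was msCol, a Columbia line made male-sterile by the ms1 mutation in a segment from Landsberg, so no epiHybrid had a wild-type Columbia mother. An epiRIL and its epiHybrid share a line number and are called a family, and the families had been chosen by the study for how far leaf area in the hybrids departed from their parents. The high group held 6 epiHybrids and 6 epiRILs from 10 families, and the low group held 7 epiHybrids and 5 epiRILs from 10 families. No library was labelled as stressed or treated: all plants grew under the same long-day regime and rosettes were taken 27 days after sowing. Each line gave 1 library pooled over 3 cultivation experiments, so plant-to-plant variation was not measured and the lines served as replicates. In such bulk samples, fewer cells of a type and less RNA per cell cannot be told apart.

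Library totals were 39.0 to 41.8 M counts in the high group and 38.1 to 41.2 M counts in the low group, so depth was nearly even. Leaf markers summed to between 41936 and 58425 CPM in high libraries, against 54592 to 73911 CPM in low ones. Markers of seeds, where many of the genes below are also active, summed to at most 0.216 CPM in high and 0.603 CPM in low libraries, and floral markers to at most 26.5 and 31.8 CPM. Libraries differed in how their values depended on gene length. The length slope, which is the slope of a library's log2 deviations on log2 exon length, was -0.051 to 0.193 (median 0.070) in the high group and -0.366 to 0.111 (median -0.236) in the low group, where long genes read low in 9 of 12 libraries with a slope below -0.1. No high library was below -0.1. The epiHybrids of families 368 and 340 stood apart from the others and were not ranked. Their LTI78 levels were 377.3 and 23.8 CPM, both beyond the ends of the ranking, and the TMM factor of epiHybrid 340, a scaling factor for composition, was 0.756, against 0.914 to 1.09 in all other libraries but that of epiHybrid 368 (0.962).

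Plants that lose water make abscisic acid, which binds PYR/PYL receptors. The occupied receptors inhibit clade A protein phosphatases 2C, and this frees SnRK2 kinases to activate ABF transcription factors, which bind an element with the core ACGTG. Cold and dehydration also act through CBF and DREB2 factors, which bind an element with the core CCGAC. Promoters of this gene class differ in their content of these elements, which makes groups of targets useful for reading the separate branches.

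LTI78 lies next to its relative RD29B on chromosome 5 (LTI78 at 21240717-21243644 and RD29B at 21237021-21239531, TAIR10.1). The windows searched before their annotated starts held different elements. The 250 bases before the annotated start of LTI78 had 3 CCGAC cores, at 140, 90 and 33 bases before the start, and 0 ACGTG. Those of RD29B had 4 ACGTG and 1 CCGAC. LEA7, a late embryogenesis abundant (LEA) protein gene, had 5 ACGTG and 1 CCGAC, and GOLS3, a galactinol synthase gene, had 2 of each. Both strands were searched, so that CACGTG counts as 2 matches. Sequence outside the 250 bases, that after the annotated start included, was not searched. A count of 0 therefore does not show that a promoter lacks the element. Of 19371 expressed genes with such a window, 23.3% held ACGTG, 13.0% held CCGAC, 0.227% held 3 or more CCGAC and 1.55% held 4 or more ACGTG. The sequences are from the RefSeq TAIR10.1 assembly, 5′ to 3′ on the plus strand, on which all 4 genes lie. LTI78 and GOLS3 are shown for genes whose log2 difference between the groups was 2.18 and 0.90 with family 158 and 2.13 and 1.02 without it, and RD29B and LEA7 for genes whose difference was 4.66 and 2.57 with that family and 0.61 and 0.72 without it. The 4 windows are examples, and other genes described below differed from them. ERD10 and COR47, whose differences held without family 158, had 0 ACGTG and 0 CCGAC. Among genes high in that family, LTP3 and P5CS1 also had 0 of each, whereas RAB18 had 3 ACGTG and LEA4-5 had 4. Whether these elements go with the differences was not tested. Capitals mark ACGTG and CCGAC on either strand (reverse CACGT and GTCGG).
LTI78 (chr5:21240467-21240716): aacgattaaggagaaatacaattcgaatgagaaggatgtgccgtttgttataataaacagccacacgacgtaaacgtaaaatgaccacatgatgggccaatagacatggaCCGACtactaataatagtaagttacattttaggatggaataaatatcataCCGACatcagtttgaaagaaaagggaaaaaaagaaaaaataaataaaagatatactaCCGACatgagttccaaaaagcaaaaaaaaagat
GOLS3 (chr1:3019389-3019638): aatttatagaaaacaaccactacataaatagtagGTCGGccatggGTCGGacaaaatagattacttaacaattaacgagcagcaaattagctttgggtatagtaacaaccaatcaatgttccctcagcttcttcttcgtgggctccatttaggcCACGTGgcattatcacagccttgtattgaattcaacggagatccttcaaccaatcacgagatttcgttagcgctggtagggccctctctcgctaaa
RD29B (chr5:21236771-21237020): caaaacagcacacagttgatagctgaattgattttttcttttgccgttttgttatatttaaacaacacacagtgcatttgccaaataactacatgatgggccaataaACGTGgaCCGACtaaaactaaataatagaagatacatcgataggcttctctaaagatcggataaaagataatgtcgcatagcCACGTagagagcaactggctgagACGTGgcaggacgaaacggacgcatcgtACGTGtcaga
LEA7 (chr1:19619474-19619723): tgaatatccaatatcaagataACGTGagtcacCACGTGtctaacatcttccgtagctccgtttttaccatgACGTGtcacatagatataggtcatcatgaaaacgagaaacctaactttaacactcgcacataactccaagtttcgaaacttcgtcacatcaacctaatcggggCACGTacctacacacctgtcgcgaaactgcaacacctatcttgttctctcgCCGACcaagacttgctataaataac

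LTI78 itself was measured at 159.2 to 270.6 CPM (median 208.5) in high libraries and at 26.1 to 56.0 CPM (median 46.3) in low libraries, a log2 difference of 2.18 ± 0.12 (SE, edgeR fit). The 46 libraries in between reached from 56.6 to 158.4 CPM, with a median of 99.6 CPM. The highest value was that of epiRIL 219 and the lowest that of epiRIL 454, a ratio of 10.4. There was no gap at either end: the last high library, epiHybrid 503, had 159.2 CPM and the next, epiHybrid 275, had 158.4 CPM, while the first low library, epiRIL 568, had 56.0 CPM and epiHybrid 389, just outside, had 56.6 CPM. Both members of families 158 and 219 were high, and both members of families 454 and 539 were low. Family 266 was split, with 199.9 CPM in the epiRIL and 50.5 CPM in the epiHybrid. The msCol mothers stood far from each other, at 110.7 CPM in line 16 and 36.6 CPM in line 12.

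**Figure D1:**
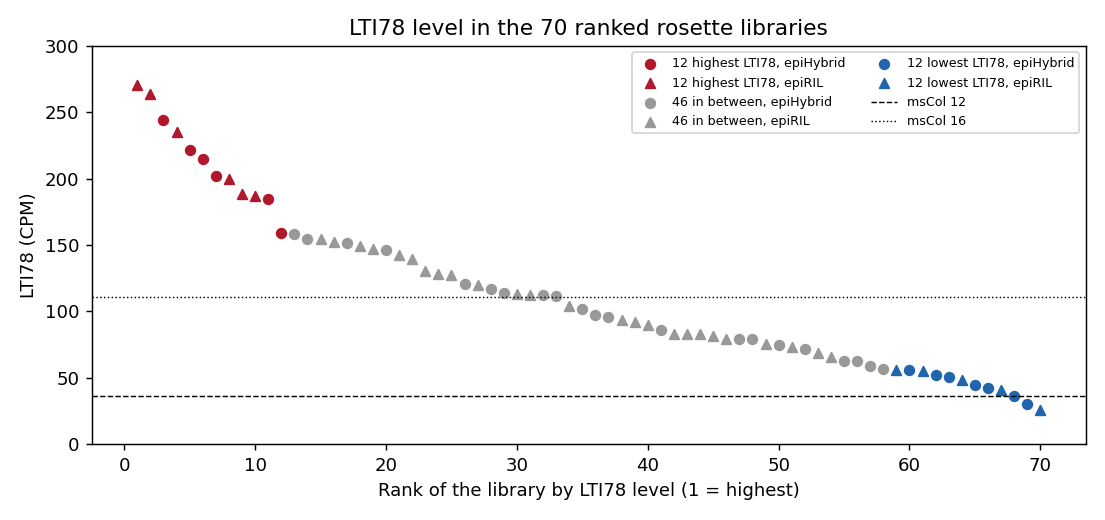
LTI78 level (CPM) of each of the 70 ranked libraries, highest at the left. Red marks are the 12 highest, blue marks the 12 lowest and grey marks the 46 libraries in between. Circles are epiHybrids, triangles epiRILs, and the horizontal lines give msCol 12 (36.6 CPM) and msCol 16 (110.7 CPM). The level falls without a gap from 270.6 to 26.1 CPM.

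Of the 19383 genes kept, the values of 261 were higher in every high library than in any low library (1.35% of genes), and those of 110 were lower in every high library (0.568%). On CPM scaled by TMM the same counts were 131 and 183, so the balance of both directions turned with the scaling. By size, 345 genes were at least 2-fold higher (1.78%) and 104 at least 2-fold lower (0.537%) in the high group. The non-overlapping genes that were higher in high libraries were long, with a median exon length of 2565 bases, against 1190 bases for those that were lower and 1774 bases for all genes kept. LTI78 has 2663 bases of exon. When 12 libraries per end were ranked among the 55 with a length slope of at least -0.1, the high group stayed the same and 3 of the former low libraries stayed; LTI78 in that low group was 42.5 to 79.3 CPM (median 68.4), and its log2 difference was 1.64. In that comparison 98 genes were higher (0.506%) and 30 lower without overlap, and 353 were at least 2-fold higher (1.82%), and of the 261 and 110 genes above 14 and 9 again did not overlap. With epiHybrids 340 and 368 put back into the ranking, 393 genes did not overlap and 647 were at least 2-fold apart. The part of the length slope in single differences was not tested. Below, the difference under this restriction is given where it is over 1.5 times larger or smaller than the main one, turns its sign or adds to the description.

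**Figure D2:**
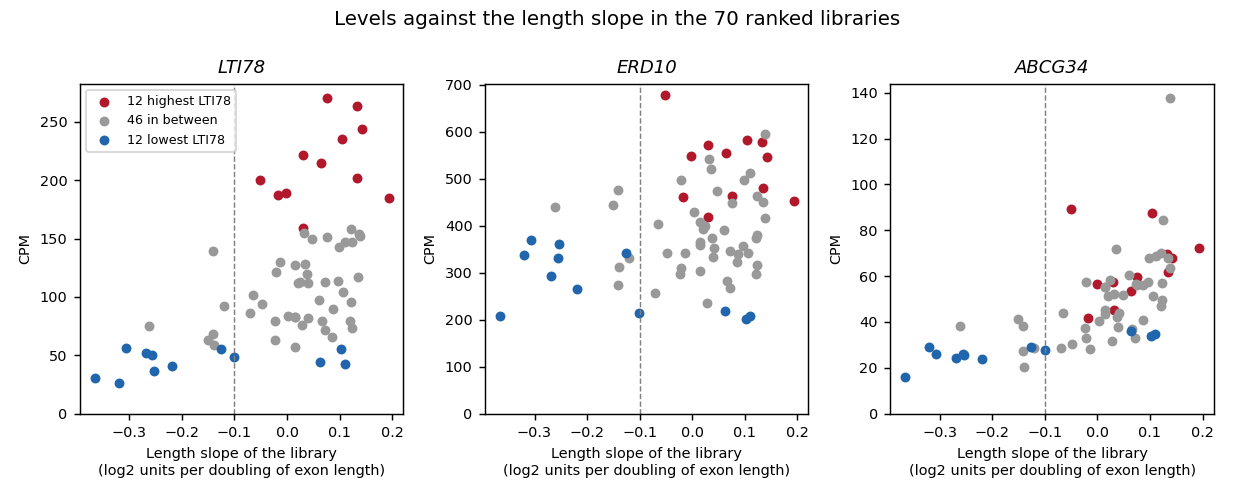
CPM of LTI78, ERD10 and ABCG34 in each of the 70 ranked libraries against the library's length slope; red marks are the 12 highest LTI78 libraries, blue marks the 12 lowest, and the dashed line is at -0.1. All high libraries lie right of the line and 9 of 12 low ones left of it; ABCG34, a long gene, is low in the libraries on the left, whereas ERD10 has some of its lowest values (201.4 and 207.0 CPM) in low libraries on the right.

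In the water-deficit, cold and abscisic acid lists, 102 of 110 genes were expressed, LTI78 not included. Of these, 84 had a log2 difference above 0, with a median of 0.34, against 9708 of the 19383 genes kept and a median of 0.00. Without overlap 4 were higher (1.35% of all genes) and 0 lower (0.568%), and at least 2-fold 9 were higher (1.78% of all genes) and 0 lower (0.537%). The comparison without family 158 (10 high libraries) gave a median of 0.27, with 79 above 0, 2 at least 2-fold higher (1.15% of all genes in that comparison) and 5 without overlap (1.38% of all genes). Among libraries with a length slope of at least -0.1 the median was 0.56, with 94 above 0 and 20 at least 2-fold higher (1.82% of all genes). Within epiHybrids alone, 6 against 6, it was 0.41, and within epiRILs alone it was 0.34. The genes not kept for low counts were XERO1, CBF4, NCED2, NCED9, HAI3, AHG1, ABI3 and ABI4.

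**Figure D3:**
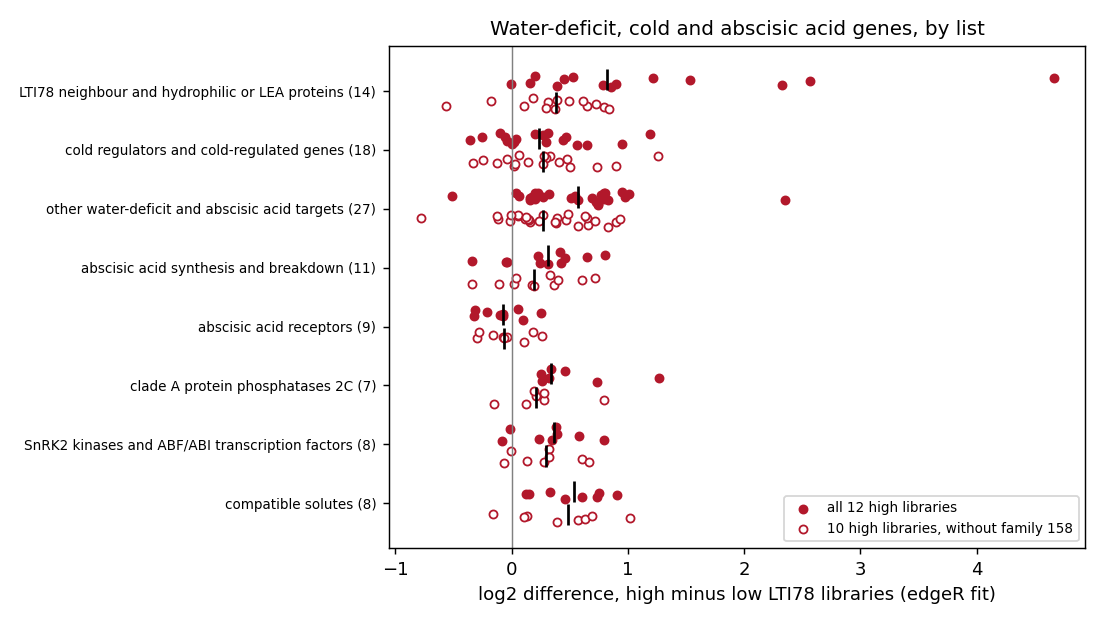
Log2 differences, high minus low LTI78 libraries, of the expressed members of 8 gene lists (number in brackets). Filled points use all 12 high libraries and open points the 10 without family 158; short vertical lines are the medians of the list. The points above 1.5, RD29B at 4.66 among them, come back below 1 when family 158 is left out.

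Some hydrophilic and LEA protein genes were high across the high libraries, and others were high in family 158. Further members of the list were of neither kind. ERD10 and COR47, neighbouring genes of dehydrins, which protect membranes and proteins in drying or freezing cells, belonged to the first kind. ERD10 had 417.5 to 678.1 CPM (median 547.2) in high libraries and 201.4 to 369.0 CPM (median 278.3) in low libraries, so that the groups did not overlap (log2 difference 0.85 ± 0.11). COR47 had 374.2 to 578.3 CPM (median 470.9) in high and 157.5 to 377.1 CPM (median 258.4) in low libraries, and just 1 low library, epiHybrid 454, exceeded the lowest high one (0.78 ± 0.12). Both differences were as large without family 158 (0.84 and 0.80) and among libraries with a length slope of at least -0.1 (0.89 and 0.93), where neither gene overlapped. These genes also tracked LTI78 over all 70 libraries, with Spearman's rho of 0.84 for ERD10 and 0.79 for COR47. Points of that correlation share library and, in pairs, family.

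RD29B, the neighbour of LTI78 and a classical target of abscisic acid, was of the second kind. It had 52.9 CPM in epiRIL 158 and 43.4 CPM in epiHybrid 158, whereas the other 10 high libraries had 0.10 to 0.97 CPM and the low libraries 0.05 to 1.39 CPM. RAB18, a dehydrin gene induced by abscisic acid, had 510.8 and 491.1 CPM in epiRIL 158 and epiHybrid 158, 18.1 to 30.8 CPM in the other high libraries and 8.76 to 32.6 CPM in low ones. RAB18 overlaps AT5G66410 in the annotation, and reads of both cannot be told apart if strand was not used. The log2 differences of 4.66 ± 1.06 for RD29B and 2.32 ± 0.60 for RAB18 were 0.61 and 0.30 without family 158. High LTI78 and high RD29B thus came together in 2 of 12 high libraries. Family 219, whose epiRIL had the highest LTI78 of all, had 0.65 CPM of RD29B in the epiRIL and 0.29 CPM in the epiHybrid.

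The LEA genes LEA7 and LEA4-5 were also high in family 158, LEA7 not in that family alone. LEA7 had 24.97 CPM in epiRIL 158 and 18.4 CPM in epiHybrid 158, but its medians were 1.05 CPM in high and 0.65 CPM in low libraries, and its log2 difference of 2.57 ± 0.68 was 0.72 without family 158. Its highest value among the 70, 27.0 CPM, was in epiRIL 211, which was in neither group. LEA4-5 reached 19.0 CPM, with medians of 2.28 CPM in high and 1.31 CPM in low libraries (1.53 ± 0.48, and 0.31 without family 158). LTI30, another dehydrin gene, had medians of 18.8 CPM in high and 11.8 CPM in low libraries (0.90 ± 0.25, and 1.44 under the length slope restriction) with overlap. LEA14 (0.39 ± 0.14) and ERD14 (0.20 ± 0.12, and 0.52 under the restriction) had smaller differences. In the whole list 13 of 14 genes had a difference above 0, with a median of 0.82, which was 0.38 without family 158 and 1.21 under the restriction.

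**Figure D4:**
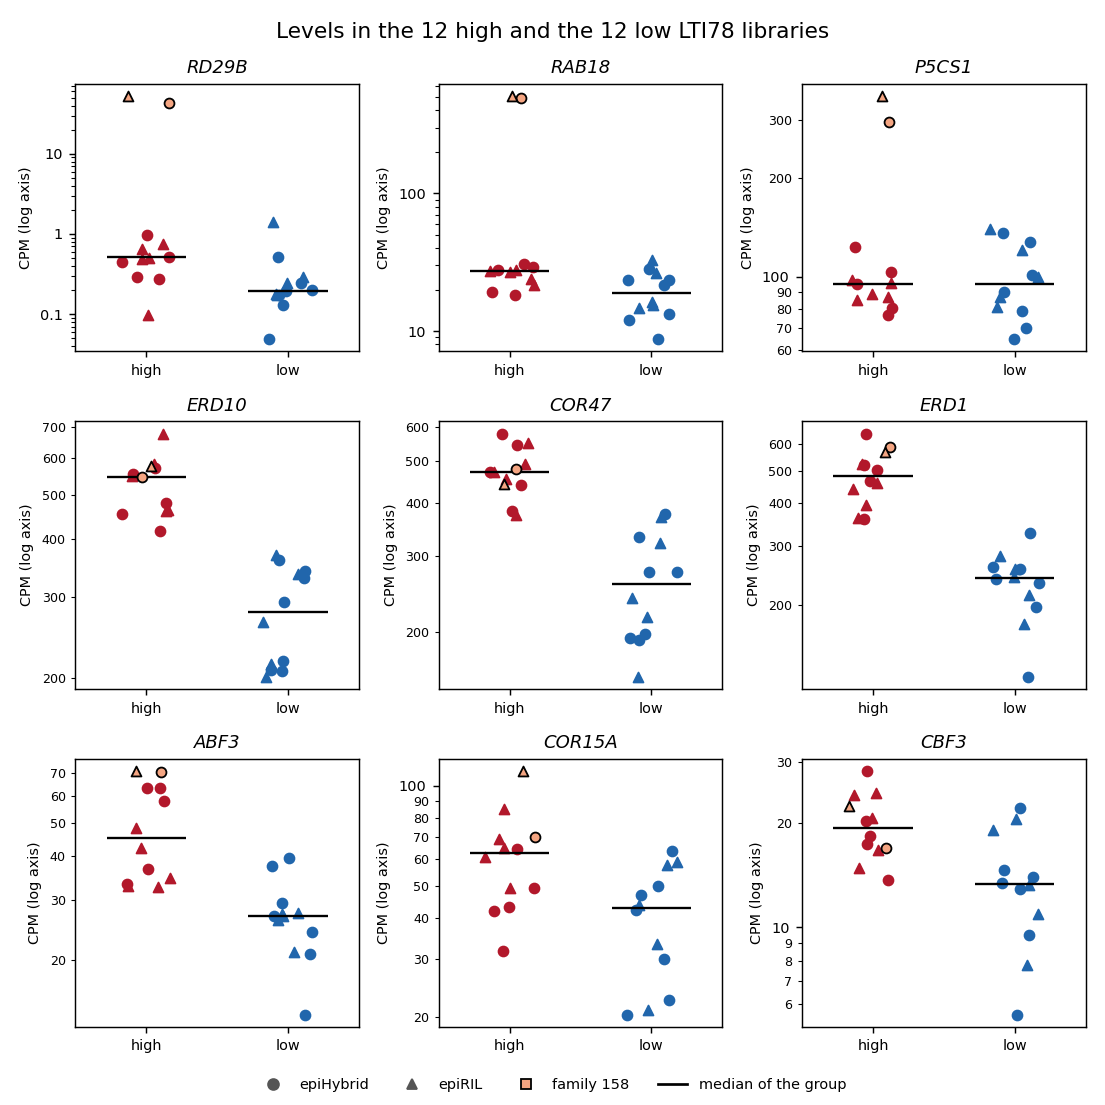
CPM on a log axis of 9 genes in the 12 high (left, red) and 12 low (right, blue) LTI78 libraries. Circles are epiHybrids, triangles epiRILs, orange marks the 2 libraries of family 158 and the bar is the median. RD29B, RAB18 and P5CS1 are far up in family 158 alone, ERD10 and ERD1 separate the groups, and COR15A and CBF3 overlap.

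The set of genes high in family 158 was small. In both libraries of that family, 19 genes (0.098%) were at least 5 CPM and at least 2-fold above the highest of the other 68 ranked libraries, and 0 genes were as far below the lowest of the others. These genes were picked for that pattern, which is therefore a description. Besides RD29B (10.3-fold above the next library), RAB18 (3.56-fold) and LEA4-5 (4.82-fold), they included LTP3, a lipid transfer protein gene, with 345.3 CPM in epiRIL 158 and 308.1 CPM in epiHybrid 158, against at most 137.3 CPM elsewhere. SAG29, a sugar transporter gene of senescing leaves, had 68.30 and 46.01 CPM, against at most 11.01 CPM. SUS3, a sucrose synthase gene, had 22.5 and 27.2 CPM, against at most 10.5 CPM. The runner-up for RD29B and RAB18 was epiRIL 211, with 4.21 and 137.9 CPM and an LTI78 of 82.7 CPM in the middle of the ranking. ACGTG was present in the promoter windows of 10 of the 19 genes (52.6%), in 49 of the 102 listed genes (48.0%) and in 23.3% of all genes. CCGAC was present in 7 of the 19 (36.8%), in 22 of the 102 (21.6%) and in 13.0% of all genes. Of the 261 genes higher in every high library, 23.4% held ACGTG and 14.9% held CCGAC, near the shares of all genes. Of the 110 genes lower in every high library, 35.5% held ACGTG and 5.45% held CCGAC.

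The median difference of the cold branch depended on the length slope. All 18 expressed genes overlapped between the groups. Over all genes just 1.35% were higher and 0.568% lower without overlap, so this count says little about 18 genes. CBF1, CBF2 and CBF3 encode the factors that bind CCGAC in the cold. CBF3 had 13.7 to 28.2 CPM (median 19.3) in high and 5.59 to 22.2 CPM (median 13.3) in low libraries (0.47 ± 0.17). CBF1 (0.44 ± 0.32) and CBF2 (0.31 ± 0.27) overlapped over most of their range. Among libraries with a length slope of at least -0.1 the differences of CBF1, CBF2 and CBF3 were 1.10, 0.83 and 0.91. In the main comparison their cold-induced targets COR15A, COR15B, KIN1 and KIN2 had smaller differences than LTI78, by which the libraries were ranked. COR15A, which encodes a chloroplast protein that protects membranes during freezing, had 31.7 to 110.7 CPM (median 62.8) in high libraries and 20.4 to 63.7 CPM (median 42.9) in low ones (0.53 ± 0.20).

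Its close copy COR15B had medians of 43.1 CPM in high and 46.2 CPM in low libraries, with a log2 difference of 0.00 ± 0.26. KIN2 had medians of 339.7 and 234.5 CPM (0.45 ± 0.19). KIN1, its close copy, had medians of 2.45 CPM in high and 1.23 CPM in low libraries, yet its highest value, 25.7 CPM, was in the low library epiRIL 454 (0.16 ± 0.57, and -0.57 without family 158). Reads of such close copies may be split between them. Under the length slope restriction the differences of COR15A, COR15B, KIN2 and KIN1 were 0.98, 0.46, 0.91 and 1.73, so these genes stood further apart in that comparison.

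Of the 18 expressed cold genes, 13 had a difference above 0, with a median of 0.24, and 1 was at least 2-fold higher (1.78% of all genes). Under the length slope restriction 16 were above 0, with a median of 0.53 and 3 at least 2-fold higher (1.82% of all genes). With the length slope as a covariate the median was 0.79 with 7 at least 2-fold higher (606 of all 19383 genes). The gene at least 2-fold higher was BAM3, a chloroplast beta-amylase gene that breaks down leaf starch, with 187.1 to 350.9 CPM (median 247.1) in high and 40.3 to 188.6 CPM (median 90.3) in low libraries (1.19 ± 0.19). It did not overlap without family 158, but its difference was 0.49 under the length slope restriction, and it shares positions with AT4G06665 and AT4G17085. CAMTA3, a calmodulin-binding activator that acts upstream of the CBF genes, stood at medians of 86.7 CPM in high and 41.6 CPM in low libraries (0.95 ± 0.18, and 0.21 under the restriction). MYB15, a factor that binds CBF promoters, was low, with medians of 2.17 CPM in high and 0.80 CPM in low libraries (0.65 ± 0.45, and 1.49 under the restriction). ICE1, an activator of CBF genes (-0.25 ± 0.05, and -0.14 under the restriction), and FAD8, a cold-regulated fatty acid desaturase gene (-0.36 ± 0.12, and -0.54 with no overlap under the restriction), were lower in high libraries.

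Of 27 other water-deficit and abscisic acid targets, 26 had a difference above 0, with a median of 0.57 (0.27 without family 158, and 0.86 under the length slope restriction). ERD1, which encodes a chloroplast Clp protease subunit induced by dehydration and senescence, had 360.8 to 643.1 CPM (median 482.8) in high and 122.9 to 326.2 CPM (median 240.9) in low libraries, with no overlap (0.98 ± 0.12). ALDH7B4, an aldehyde dehydrogenase gene, had 94.3 to 223.2 CPM (median 123.6) in high and 41.5 to 91.5 CPM (median 79.6) in low libraries, again with no overlap (0.80 ± 0.13). Both values were smaller under the length slope restriction, at 0.60 and 0.64, and both genes overlapped there. ERD7 had medians of 146.1 CPM in high and 84.3 CPM in low libraries (0.83 ± 0.17, and 0.99 with no overlap under the restriction).

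The transcription factors of this list were higher by less than 2-fold. DREB2A, a factor that activates LTI78 in drought and heat, had medians of 6.92 CPM in high and 3.69 CPM in low libraries (0.79 ± 0.19). RD26, a NAC factor induced by dehydration, had medians of 28.04 and 18.19 CPM (0.55 ± 0.17, and 0.86 under the restriction), and ATHB7, a homeodomain factor induced by abscisic acid, had 31.5 and 18.7 CPM (0.95 ± 0.27, and 0.48 without family 158). TSPO, a membrane protein gene induced by abscisic acid, reached 7.002 CPM in the high group but had medians of 0.34 and 0.18 CPM (2.35 ± 0.70, with 0.37 without family 158 and 3.58 under the restriction). LTP3 likewise had a difference of 1.01 ± 0.42 that was 0.12 without family 158 and 1.67 under the restriction. RD22, a dehydration-responsive gene, was nearly even at medians of 555.3 and 463.8 CPM (0.27 ± 0.11). DI21, a drought-induced gene, was lower in the high group, at medians of 14.7 and 16.0 CPM (-0.52 ± 0.25), but its difference was 0.11 under the restriction.

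Of 11 expressed genes that make and break down abscisic acid, 8 had a difference above 0, with a median of 0.31 (0.19 without family 158, and 0.23 under the length slope restriction). NCED3, the dioxygenase gene that limits its synthesis under water deficit, had 9.76 to 23.7 CPM (median 14.6) in high and 7.85 to 19.6 CPM (median 10.6) in low libraries (0.31 ± 0.15, and 0.62 under the restriction). AAO3, which encodes the aldehyde oxidase of the last step, had medians of 35.7 CPM in high and 18.3 CPM in low libraries (0.80 ± 0.16), and ABA3, needed for the cofactor of that oxidase, had 10.9 and 6.31 CPM (0.65 ± 0.11). Under the length slope restriction these differences were 0.24 and 0.18. CYP707A4, a gene of abscisic acid breakdown, had medians of 4.03 and 2.64 CPM (0.46 ± 0.14). None of the 11 genes was 2-fold apart or free of overlap. Over all genes the shares were also small, at 1.78% at least 2-fold higher and 0.537% lower, and 1.35% higher and 0.568% lower without overlap.

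The signalling chain differed by step. Of the 9 receptor genes, 3 had a difference above 0, with a median of -0.08. The median was -0.01 with 4 above 0 under the length slope restriction. It turned to 0.02 with 6 above 0 when the length slope was a covariate. The largest differences in the main comparison were those of PYL8 (-0.33 ± 0.09), PYL1 (-0.31 ± 0.07) and PYL9 (0.25 ± 0.09). Under the length slope restriction these were -0.06, -0.01 and 0.41. All 7 expressed clade A phosphatases 2C, the proteins that the receptors inhibit and whose own transcripts abscisic acid induces, had a difference above 0, with a median of 0.34 (0.21 without family 158, and 0.60 under the restriction). HAI2 had 4.47 to 34.8 CPM (median 9.98) in high and 2.71 to 12.9 CPM (median 4.07) in low libraries (1.27 ± 0.30, and 0.79 without family 158). HAI1 had 24.8 CPM in epiRIL 158 and 25.4 CPM in epiHybrid 158, but its medians were 3.98 CPM in high and 3.55 CPM in low libraries (0.73 ± 0.41, with -0.15 without family 158 and 1.59 under the restriction). HAB1 had medians of 36.4 and 27.1 CPM (0.46 ± 0.14).

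Among the low libraries, HAI1 (13.4 CPM) and HAI2 (12.9 CPM) were highest in epiRIL 454, the library with the lowest LTI78. The SnRK2 kinase and ABF/ABI factor genes had a median difference of 0.37, with 6 of 8 above 0. ABF1 had 32.2 to 47.5 CPM (median 36.0) in high and 21.0 to 29.3 CPM (median 23.5) in low libraries, with no overlap (0.58 ± 0.07, and 0.34 with overlap under the length slope restriction). ABF3 had medians of 45.4 and 26.9 CPM (0.79 ± 0.16, and 0.50 under the restriction), and ABI5, a factor of seeds and seedlings, had 2.68 and 1.91 CPM (0.39 ± 0.15). OST1, the SnRK2 kinase of stomatal closure, had 18.3 and 13.7 CPM (0.35 ± 0.07). ABF1 and ABF3 overlap other annotated genes.

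Genes of the metabolism of protective sugars and proline, breakdown included, had 8 of 8 differences above 0, with a median of 0.53. Without family 158, 7 of 8 were above 0 with a median of 0.48. The median was 0.28 under the length slope restriction. Galactinol synthases start the raffinose sugars. GOLS2 had 66.9 to 201.2 CPM (median 141.6) in high and 27.0 to 126.6 CPM (median 86.7) in low libraries (0.74 ± 0.21), GOLS3 had medians of 14.5 and 7.15 CPM (0.90 ± 0.17), and GOLS1 had 23.8 and 16.0 CPM (0.75 ± 0.18). Without family 158 GOLS3 stood at 1.02. P5CS1, the gene of the limiting step of proline synthesis, had 355.3 CPM in epiRIL 158 and 296.3 CPM in epiHybrid 158, whereas the medians were 95.4 CPM in high and 94.9 CPM in low libraries (0.33 ± 0.24, with -0.16 without family 158 and 0.18 under the restriction). P5CS1 overlaps AT2G39795.

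The genes furthest apart without overlap, at a mean of at least 5 CPM, were next considered. After LTI78, the higher ones were RLP33, AT2G43500, ABCB4, ABCG34, AT2G22660, AT1G76580 and AT3G16940. RLP33, a receptor-like protein gene, had 15.4 to 28.4 CPM (median 19.4) in high and 5.61 to 12.8 CPM (median 7.49) in low libraries (1.26 ± 0.12), and it did not overlap under the length slope restriction either (0.96). The remaining 6 had differences of 1.07 to 1.23. Under the restriction all 6 overlapped, with differences of 0.42 to 0.67. ABCG34, an ABC transporter gene, for instance, had medians of 60.7 CPM in high and 26.9 CPM in low libraries (1.13 ± 0.12, and 0.66 under the restriction).

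The lower genes were AT3G21460, AT5G18600, AT4G29905, AT2G21210, ACP4, GHS1, ARR4 and AT4G34760. AT5G18600 had 51.9 to 96.3 CPM (median 69.0) in high and 110.6 to 172.2 CPM (median 129.4) in low libraries (-0.91 ± 0.10). ACP4, an acyl carrier protein gene of chloroplast fatty acid synthesis, had medians of 266.1 CPM in high and 467.5 CPM in low libraries (-0.87 ± 0.11). ARR4, a response regulator gene of cytokinin signalling, had 68.2 and 108.9 CPM (-0.76 ± 0.12). All 8 overlapped under the length slope restriction, with differences of -1.06 to -0.56.

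The genes whose levels over the 70 libraries were most like that of LTI78, by Spearman's rho, were RLP33 (0.87), AT3G55760 (0.85), ERD10 (0.84), PLDALPHA1 (0.83), AT1G78070 (0.81), AT4G23050 (0.81), AT1G76580 (0.80) and AT2G38000 (0.80). AT3G55760 had 55.4 to 76.0 CPM (median 67.1) in high and 24.9 to 42.4 CPM (median 37.3) in low libraries (0.77 ± 0.07), and remained free of overlap under the length slope restriction (0.58). PLDALPHA1, a phospholipase D gene that acts in the abscisic acid response of guard cells, had medians of 466.2 and 303.4 CPM (0.63 ± 0.09, and 0.28 under the restriction). LTI78 itself had a rho of 0.516 with the length slope and of 0.501 with the TMM factor, over the same 70 libraries.

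Lists for other conditions also had medians away from 0 in this split, and their part in it was not tested. All 6 jasmonate genes had a difference above 0, with a median of 0.81. LOX2, a lipoxygenase gene of jasmonate synthesis, had 852.2 to 1680 CPM (median 1241) in high and 297.2 to 908.8 CPM (median 595.4) in low libraries (1.04 ± 0.16, and 0.51 under the length slope restriction). OPR3, a reductase gene of the same route, had 66.9 to 477.6 CPM (median 92.1) in high and 34.4 to 82.9 CPM (median 52.2) in low libraries (1.33 ± 0.28), with the top value in epiRIL 266. JAZ1, a jasmonate repressor gene, had medians of 41.6 and 16.3 CPM (1.33 ± 0.29).

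The touch and wound list, which includes JAZ1, had a median of 0.33, with 6 of 8 above 0, and of 0.74 under the restriction. The 5 expressed heat shock genes had a median of 0.61, and 0.54 under the restriction. The 10 clock genes had a median of 0.27, and 0.13 under the restriction. The 6 anthocyanin genes had a median of 0.39, which was -0.01 without family 158, with 2 of 6 above 0, and 1.20 under the restriction. The 6 senescence genes had a median of 0.55, which was 0.28 without family 158 and 0.79 under the restriction. Among clock genes GI had medians of 119.5 CPM in high and 61.9 CPM in low libraries (0.84 ± 0.14, and 0.32 under the restriction). The 7 salicylic acid defence genes had a median of -0.26, which was -0.01 under the restriction and turned to 0.45 with the length slope as a covariate, with PR1 at medians of 50.8 and 83.4 CPM (-0.79 ± 0.30, and -0.07 under the restriction). Genes that respond to darkness and sugar starvation had a median of -0.12, which turned to 0.13 under the restriction. Of the 5 leaf markers 1 had a difference above 0, with a median of -0.50, and -0.43 under the restriction. Among them RBCS1A and RBCS3B, small subunits of Rubisco, were lower in the high group (-0.55 ± 0.11 and -0.59 ± 0.11).

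The other member of a high or low family, when it was not itself among the 24, is called its partner. Partners therefore had an LTI78 level in the middle of the ranking, and their LTI78 is given as a description. The 6 partners of high libraries had 158.4, 152.6, 127.6, 111.8, 93.5 and 92.1 CPM of LTI78, and the 7 partners of low libraries had 142.6, 112.3, 75.5, 74.9, 68.4, 65.4 and 62.8 CPM. The means were 122.7 ± 28.6 CPM for partners of high and 86.0 ± 29.99 CPM for partners of low libraries (SD). The ranges overlapped, and the difference in the edgeR fit was 0.51 ± 0.19 on the log2 scale. Across all genes, no gene passed an adjusted p of 0.05 (0%) by edgeR's quasi-likelihood test, 136 had an unadjusted p under 0.05, and DESeq2 called 1. None of the 102 listed genes had an unadjusted p under 0.05 by edgeR in this comparison, against 136 of all 19383 genes. Families 158, 219, 454 and 539, with both members among the 24, gave no partner. The comparison thus cannot show whether families shared the differences. For ERD10 the partners of high libraries had 331.8 to 416.3 CPM (median 386.1) and the partners of low libraries 234.3 to 497.2 CPM (median 322.2), a difference of 0.15 ± 0.14 in the edgeR fit.

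Over the 34 families with both members ranked, LTI78 in epiHybrids followed that in their fathers. Pearson's r on log2(CPM + 1) was 0.515 (permutation p = 0.00186) and Spearman's rho was 0.462 (permutation p = 0.00642, both two-sided, 100000 shuffles). Without the 2 families farthest from the median of the fathers, r was 0.384 (permutation p = 0.0306). The length slope of the libraries also correlated within families (r = 0.447, permutation p = 0.00814, rho = 0.289, permutation p = 0.0985), and with the length slope regressed out of LTI78 the r of LTI78 was 0.511 (permutation p = 0.00227). Across genes, 6832 had a positive correlation at an adjusted permutation p under 0.05 (35.2%), LTI78 among them with an adjusted permutation p of 0.0150. Of the 102 listed genes, 64 passed. They included 10 of 14 hydrophilic and LEA protein genes, 20 of 27 other targets, 5 of 7 phosphatases and 9 of 18 cold genes. The remaining lists gave 6 of 11 abscisic acid synthesis and breakdown genes, 5 of 9 receptor genes and 4 of 8 kinase and factor genes. Protective sugar and proline genes gave 5 of 8. Family 158 was high in both members for RD29B and the genes that went with it, and their correlations were not computed without that family. With all 36 families, which brings in epiHybrids 340 and 368, 3293 genes passed.

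**Figure D5:**
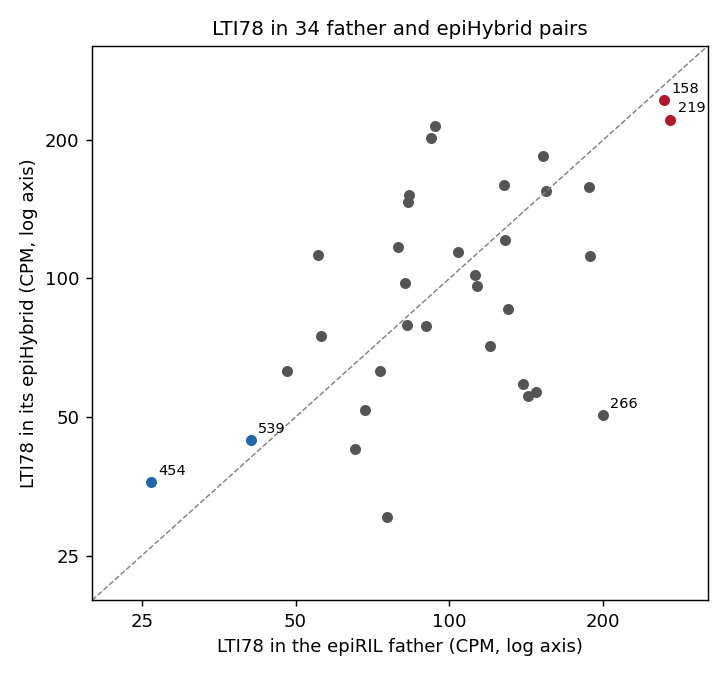
LTI78 in the epiHybrid against LTI78 in its epiRIL father (CPM, both axes logarithmic) for 34 families; the dashed line marks equal levels. Families 158 and 219 (red) lie at the top right, 454 and 539 (blue) at the bottom left, and family 266 is far below the line.

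The kind of line did not separate LTI78 by test. epiHybrids had 107.4 ± 58.1 CPM and epiRILs 114.0 ± 57.8 CPM (SD, n = 34 each), with epiHybrids higher in 15 of 34 families (log2 difference -0.11 ± 0.12, adjusted p = 0.996, edgeR with family as a block). Of all genes, 260 passed (1.34%), 68 higher and 192 lower in epiHybrids (0.991% lower), and without the block 165 passed. In the lists 3 cold genes were among them, all lower in epiHybrids. CBF2 averaged 8.75 ± 4.13 CPM over epiHybrids and 12.1 ± 5.35 CPM over epiRILs (-0.48 ± 0.13, edgeR adjusted p = 0.0379, higher in 8 of 34 families). ZAT10, a zinc finger repressor gene induced by cold and many other stresses, averaged 37.1 ± 20.5 CPM over epiHybrids and 55.3 ± 32.7 CPM over epiRILs (-0.56 ± 0.14, edgeR adjusted p = 0.0283, higher in 8 of 34 families). ZAT12, a zinc finger gene of cold and oxidative stress, averaged 4.52 ± 1.99 CPM over epiHybrids and 7.62 ± 5.82 CPM over epiRILs (-0.61 ± 0.15, edgeR adjusted p = 0.0301, higher in 7 of 34 families).

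Without the block the adjusted p-values of edgeR were 0.282 for CBF2, 0.325 for ZAT10 and 0.0318 for ZAT12, so that CBF2 and ZAT10 no longer passed. In the touch and wound list 5 of 8 genes were also lower in epiHybrids by the blocked edgeR test, ERF6 among them (-0.54, adjusted p = 0.0153), and no gene was higher. RD29B, RAB18, ERD10, COR47 and the other hydrophilic and LEA protein genes did not pass the test between kinds of line.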

How the data were processed

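RNA-seq of rosettes was available as a table of raw counts per gene in 74 libraries, deposited by the authors. The authors trimmed reads with Trim Galore, aligned them to TAIR10 with TopHat2 and counted them with featureCounts; versions, use of strand and treatment of multiply aligned reads are not given in the sources used here. The deposited counts were not normalised. Library totals were 38.1 to 42.2 M, and 1 count at median depth was 0.0245 CPM. Differences between lines, not counting error, set the precision, and each line gave a single library.

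Of 32833 genes, the 19383 that reached 1 CPM in 2 or more libraries were used (99.9% of counts). Levels are CPM on library totals; log2 differences with SE are from edgeR 4.0.16 (R 4.3.3) with TMM factors. Genes were called by the quasi-likelihood test at a Benjamini-Hochberg adjusted p under 0.05 (two-sided), and DESeq2 1.42.0 was an alternative. Between the high and low LTI78 libraries no test was made. Correlations between fathers and epiHybrids used log2(CPM + 1) and 100000 shuffles of the fathers, one-sided over genes and two-sided for LTI78. The pairing of family numbers comes from parentage: the deviations of an epiHybrid and its father correlated at 0.442 ± 0.279 (SD over 34 families, above 0.1 in 29), against -0.0109 for other fathers. Names, lengths and positions are from TAIR10.1 (32548 genes matched). The edgeR and correlation steps were tested on simulated data.

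The libraries and gene lists were chosen with earlier results of these data known. Genes named were LTI78 and a fixed set of markers (RD29B, RAB18, COR15A, COR15B, KIN1, KIN2, COR47, ERD10, CBF1, CBF2, CBF3, DREB2A, RD26, NCED3, HAI1, ABF3 and P5CS1), the 3 largest differences of each list, the 8 highest and 8 lowest non-overlapping genes and the 8 most like LTI78; all others were named after their values were seen.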

Additional observations from a re-analysis of the deposited data

Results flagged for a closer look

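Among 36 groups of partner libraries checked, of which chance would mark about 1 in 20, a single value stood out from its group: NCED3, the dioxygenase gene of abscisic acid synthesis, had 15.6 CPM in epiRIL 503, the highest among partners of high LTI78 libraries, and the next value was 12.0 CPM. In a library that was not ranked, epiHybrid 368, the marker genes stood above both msCol libraries. LTI78 was at 377.3 CPM in epiHybrid 368, against at most 110.7 CPM in msCol. RD29B was at 19.4 CPM, against at most 1.19 CPM in msCol, and RAB18 was at 535.0 CPM, against at most 28.04 CPM in msCol.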

How the results depend on the processing

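Choices were changed 1 at a time. Of the main counts, the correlation of LTI78 and the median difference of named genes, 62 alternatives gave the same result and 13 moved a count by more than 1.5 times. The correlation was called the same at a permutation p under 0.05, and the median difference within the spread between lines. The 62 include leaving out each of the 24 libraries in turn, which can only keep or raise the number of non-overlapping genes. The split of the non-overlapping genes turned from 261 higher and 110 lower to 131 higher and 183 lower on CPM scaled by TMM, although their number stayed within 1.5 times. The number of non-overlapping genes (371) was 1089 with 8 libraries per group, 14 with 17 per group, 1377 within epiHybrids and 579 within epiRILs (6 per group each); smaller groups overlap less often by construction. It was 128 among libraries with a length slope of at least -0.1. Leaving out each library in turn gave 371 to 537, the highest without epiHybrid 503. The number of genes at least 2-fold apart (449) was 692 with 8 libraries per group, 722 within epiHybrids, 721 with the length slope as a covariate and 2657 with no filter on low counts. For partners, DESeq2 called 1 gene and 8 libraries per group gave 1, against 0 by edgeR. Between epiHybrids and epiRILs, 165 genes passed with no replicate block, against 260 with it. The genes with a father to epiHybrid correlation were 3293 with all 36 families, against 6832. The causes were not tested. Leaving out family 158, the length slope restriction and the residuals on the length slope were added after seeing the data. Of the named genes, 665 values under alternatives were the same, 51 moved, 2 lost their call and 1 gained a call. That 1 was LTI78 in partners by an exact permutation test, which is not used because the ranking bounded partner levels. Only changes larger than the spread between lines can be seen at 12 libraries per group.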

Other observations

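The epiHybrid of family 368, which was not ranked, was also high for most of the genes picked in family 158. Of the 19 genes that were high in both libraries of family 158, 15 were in epiHybrid 368 also above the highest of the other 68 ranked libraries. The share of all genes for which epiHybrid 368 lay above those 68 libraries was not computed, so this count has no background. LEA4-5 had 9.24 CPM there and SAG29 29.1 CPM, against at most 2.99 and 11.01 CPM in those 68 libraries. COR47 reached 1415 CPM in epiHybrid 368, against at most 578.3 CPM in the 68, and ERD1 reached 986.1 CPM, against at most 643.1 CPM. COR15A (40.7 CPM) and CBF2 (3.34 CPM) in the same library were within or below the range of the low LTI78 libraries (20.4 to 63.7 CPM for COR15A and 3.64 to 21.3 CPM for CBF2). Its father, epiRIL 368, was a high library for LTI78 with 0.50 CPM of RD29B and 27.6 CPM of RAB18. The epiHybrid of family 340, at 23.8 CPM of LTI78, had 41.8 CPM of BAM3 and 32.0 CPM of ALDH7B4. These genes were named after their values were seen.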
